A study of Homo sapiens with 6 samples.

Results

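The 14-3-3 family was followed through RNA sequencing of the human papillary thyroid carcinoma cell line TPC-1 with and without *RRM2* overexpression. Its members were the genes of the deposited expression table whose symbol is *YWHAB*, *YWHAE*, *YWHAG*, *YWHAH*, *YWHAQ*, *YWHAZ* or *SFN*, and all 7 were found among the 58735 genes listed. The 3 control libraries came from TPC-1 cells described as the wild strain. The 3 *RRM2*-OE-TPC-1 libraries came from TPC-1 cells infected with a lentivirus that carries full-length *RRM2* behind a CMV promoter and selected with puromycin. No library of cells with an empty vector was used here, so the effects of *RRM2* and those of infection and selection cannot be told apart. The labels describe biological triplicates of each line but do not say whether the lentiviral line was a pool or 1 clone, and their genotype entry for *RRM2*-OE-TPC-1 replicates 2 and 3 reads RRM3 and RRM4 where the titles read *RRM2*.

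14-3-3 proteins are small acidic adaptors that work as dimers. Each dimer holds client proteins at short motifs that a kinase has phosphorylated on serine or threonine, and keeps the client in the cytoplasm, blocks its catalytic site, protects it from degradation or joins it to another protein. Among the clients are CDC25 phosphatases, FOXO transcription factors, class IIa histone deacetylases, RAF kinases, BAD and YAP, and the family is therefore known for its place in cell cycle checkpoints, survival and growth signaling. The YWHA genes are expressed in nearly all tissues, whereas *SFN*, which encodes 14-3-3 sigma or stratifin, belongs to stratified epithelia and is often silenced in carcinomas.

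Values are FPKM, the reads of a gene per kilobase of its length and per 1000000 reads, as the authors computed them. Each library held 14317091 to 17084067 reads on genes, and mitochondrial genes took 4.29% to 5.89% of them. *RRM2*, the subunit of ribonucleotide reductase that was overexpressed, had 9.17, 9.05 and 8.52 FPKM in TPC-1 and 50.4, 47.5 and 47.2 FPKM in *RRM2*-OE-TPC-1, so each library matched its title. The cell line kept few thyroid markers. Of 14 follicular genes, *PAX8*, *FOXE1* and *DUOX1* passed the minimum for testing, *NKX2-1* and *IYD* were listed at 0 in all 6 libraries, and *TG* and *TSHR* stayed at or below 0.113 FPKM.

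Overexpression of *RRM2* went with higher levels of all 6 YWHA genes, and *YWHAH* was the only one of them to rise by more than 2-fold. The smallest increase was that of *YWHAE*, 1.27-fold. *SFN* was barely transcribed, and its few reads were also more numerous in *RRM2*-OE-TPC-1. In none of the 7 genes did the libraries of one line overlap with those of the other. With limma on log2(FPKM + 0.1) and Benjamini-Hochberg adjustment over 13621 tested genes, 6 of the 7 genes reached the threshold of 0.05, and *SFN* was below the minimum of the test. The comparison moved much of the transcriptome: 34.9% of all tested genes passed this threshold as higher and 32.7% as lower, and in 37.3% all 3 *RRM2*-OE-TPC-1 libraries lay above all 3 TPC-1 libraries. The YWHA genes are also abundant, and among the 699 tested genes with a mean of at least 50 FPKM, 53.1% passed as higher, with a median log2 fold change of 0.17 against 0.011 over all tested genes. In bulk RNA a change in the cells that carry a transcript and a change in its amount per cell cannot be told apart.

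**Figure D1:**
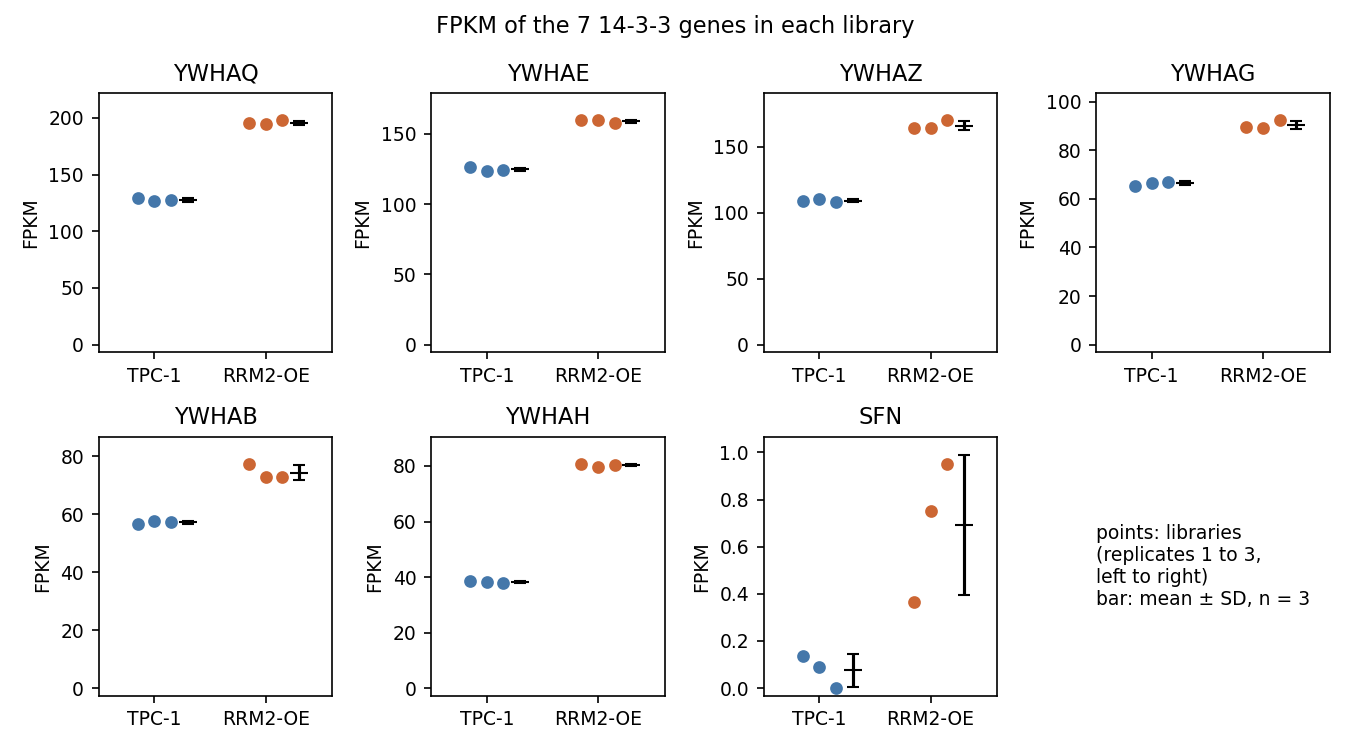
FPKM of each 14-3-3 gene (vertical axis, its own scale from 0 in each panel) in the 3 TPC-1 libraries (blue) and the 3 *RRM2*-OE-TPC-1 libraries (orange), with the mean and SD beside the points. In every panel all orange points lie above all blue points, and *SFN* alone stays below 1 FPKM.

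*YWHAH* (ENSG00000128245, GRCh38 chromosome 22 from 31944461 to 31957603, plus strand) encodes 14-3-3 eta, an isoform abundant in brain that also binds the glucocorticoid receptor. It had 38.4, 38.2 and 37.8 FPKM in TPC-1 and 80.7, 79.8 and 80.4 FPKM in *RRM2*-OE-TPC-1. The values within each line were closely grouped, at 38.1 ± 0.349 and 80.3 ± 0.488 FPKM (SD, n = 3 each), with a wide gap between the lines. The log2 fold change was 1.07 (SE 0.0284, 95% interval 1.01 to 1.14, limma adjusted p = 5.94e-08), or 2.10-fold. Of all tested genes, 4.48% rose and 6.97% fell by at least 2-fold at this threshold, and 96.2% had a smaller log2 fold change than *YWHAH*. Among the 699 abundant genes, 4.72% had a log2 fold change at least as large. With 38.1 FPKM in TPC-1, *YWHAH* met the minimum mean of 50 FPKM for this set only through its *RRM2*-OE-TPC-1 values. The share of 4.72% is therefore a description and no test of its rise against equally abundant genes. *YWHAH* was counted from 1476 to 1575 reads per library in TPC-1 and from 2863 to 3353 reads in *RRM2*-OE-TPC-1. Its exons share 22 bases with *C22orf24* on the opposite strand, which averaged 0.0937 FPKM, and 105 bases with *Z82190.2* on the same strand, which was listed at 0.

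*YWHAQ* (ENSG00000134308, chromosome 2 from 9583972 to 9631014, minus strand) encodes 14-3-3 theta, also called tau. It was the most abundant member in both lines, with 129, 126 and 127 FPKM in TPC-1 and 195, 194 and 198 FPKM in *RRM2*-OE-TPC-1. The lowest *RRM2*-OE-TPC-1 library was far above the highest TPC-1 library. Its log2 fold change was 0.62 (SE 0.0300, 95% interval 0.55 to 0.69, limma adjusted p = 1.03e-06), or 1.53-fold.

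*YWHAZ* (ENSG00000164924, chromosome 8 from 100916525 to 100953388, minus strand) encodes 14-3-3 zeta, the isoform best known for high expression in carcinomas and for holding BAD and ASK1 inactive. Its level was 109, 111 and 108 FPKM in TPC-1 and 164, 164 and 170 FPKM in *RRM2*-OE-TPC-1. Replicate 3 was the highest *RRM2*-OE-TPC-1 library, but the distance between the lines was larger than the spread within either. Its log2 fold change of 0.60 (SE 0.0315, 95% interval 0.53 to 0.68, limma adjusted p = 1.45e-06), or 1.52-fold, was close to that of *YWHAQ*.

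*YWHAG* (ENSG00000170027, chromosome 7 from 76326794 to 76359031, minus strand) encodes 14-3-3 gamma, which binds CDC25 phosphatases and MDM4. It had 65.5, 66.7 and 67.0 FPKM in TPC-1 and 89.6, 89.1 and 92.3 FPKM in *RRM2*-OE-TPC-1. The log2 fold change was 0.44 (SE 0.0306, 95% interval 0.37 to 0.51, limma adjusted p = 5.97e-06).

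*YWHAB* (ENSG00000166913, chromosome 20 from 44885676 to 44908532, plus strand) encodes 14-3-3 beta, a partner of RAF kinases. It had 56.6, 57.6 and 57.3 FPKM in TPC-1 and 77.4, 72.7 and 72.9 FPKM in *RRM2*-OE-TPC-1. Replicate 1 of *RRM2*-OE-TPC-1 stood above the other 2, which made the spread of *YWHAB* in this line (SD 2.63 FPKM) larger than in TPC-1 (SD 0.515 FPKM). The groups did not overlap, and the log2 fold change was 0.38 (SE 0.0348, 95% interval 0.30 to 0.46, limma adjusted p = 2.96e-05).

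*YWHAE* (ENSG00000108953, chromosome 17 from 1344272 to 1400378, minus strand) encodes 14-3-3 epsilon, which readily pairs with the other isoforms and is needed for neuronal migration. It had 126, 123 and 125 FPKM in TPC-1 and 159, 159 and 157 FPKM in *RRM2*-OE-TPC-1. The estimate for *YWHAE* was the smallest of the 6, but its libraries were again separated by line, with a log2 fold change of 0.35 (SE 0.0294, 95% interval 0.28 to 0.42, limma adjusted p = 1.77e-05). In the 699 abundant genes, 35.8% had a log2 fold change at least as large as that of *YWHAE*. No exon of *YWHAB*, *YWHAE*, *YWHAG*, *YWHAQ*, *YWHAZ* or *SFN* overlaps an exon of another annotated gene.

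**Figure D2:**
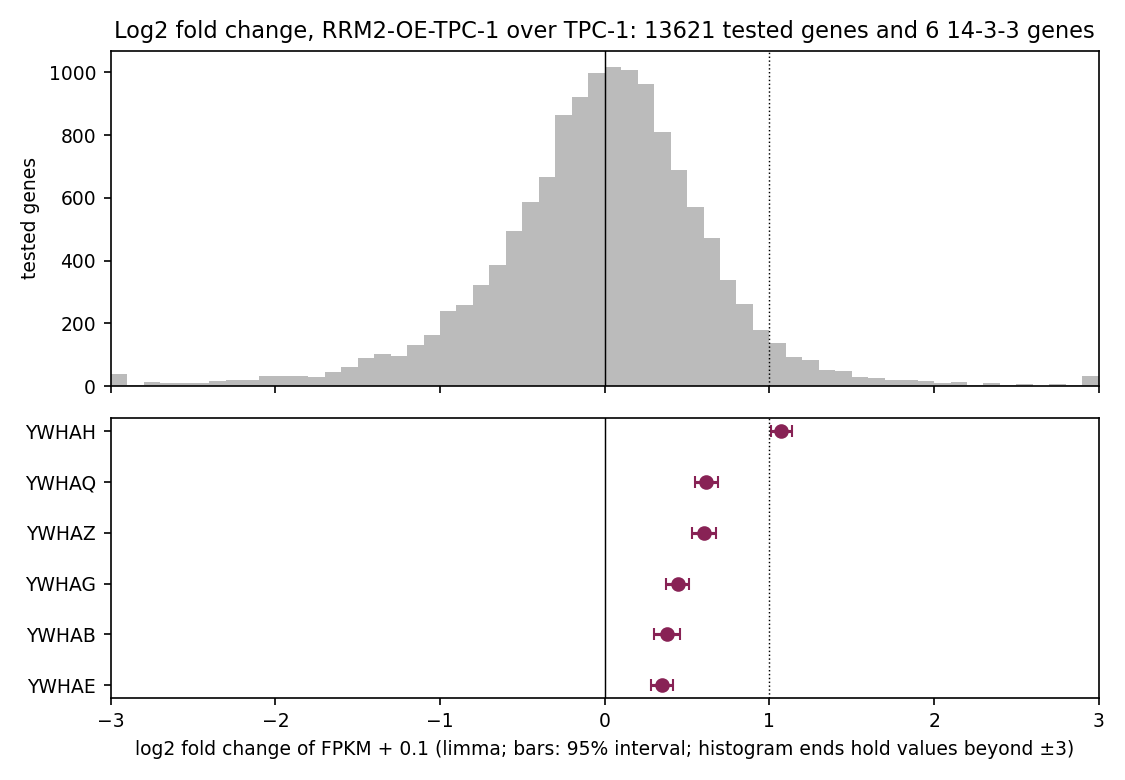
Log2 fold change of FPKM + 0.1, *RRM2*-OE-TPC-1 over TPC-1 (horizontal axis), as a histogram of all 13621 tested genes above and for the 6 tested 14-3-3 genes with limma's 95% intervals below. All 6 intervals lie to the right of 0, and that of *YWHAH* (1.01 to 1.14) lies beyond the dotted line at 1. With scaling to library totals, which is not drawn, the log2 fold change of *YWHAH* was 1.02, nearer to that line.

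*SFN* (ENSG00000175793, chromosome 1 from 26863138 to 26864457, plus strand) is known for holding CDK1 and cyclin B in the cytoplasm after DNA damage. Its values stood for very few reads. FPKM multiplied by gene length gave back 3, 2 and 0 reads in the TPC-1 libraries and 7, 17 and 20 reads in the *RRM2*-OE-TPC-1 libraries, for FPKM values of 0.136, 0.0901 and 0 against 0.367, 0.752 and 0.951. All 3 *RRM2*-OE-TPC-1 libraries held more reads than any TPC-1 library. Replicate 1 of *RRM2*-OE-TPC-1, with 7 reads, was the smallest library of all, and the largest TPC-1 library, replicate 1 with 16186204 reads on genes, held 3.

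In reads per 1000000 reads on genes, *SFN* averaged 0.103 ± 0.0945 reads without and 0.912 ± 0.388 reads with *RRM2* overexpression (SD, n = 3 each). The two-sided exact permutation test gave p = 0.1, the smallest p that 3 against 3 libraries allow. Summed over the libraries, 44 reads against 5 gave a ratio of 8.80 after division by library reads, with an exact 95% interval of 3.50 to 28.4 that covers counting error only. The ratio of mean levels was 3.14 on the log2 scale, and it ranged from 2.56 without TPC-1 replicate 3, the library with no read, to 3.87 without TPC-1 replicate 1, so its size rests on single libraries. Without a minimum for testing, the log2 fold change of *SFN* on the FPKM + 0.1 scale was 2.18 (limma adjusted p = 0.0154). A count of 0, as in TPC-1 replicate 3, would allow up to 3 reads, or 0.198 reads on this scale in that library. Replicates 1 and 2 of TPC-1 held 3 and 2 reads, so this limit does not describe them. *SFN* made up 0.00396% of all 14-3-3 reads without *RRM2* overexpression and 0.0251% with it. *YWHAH* and *SFN* both belong to the cell cycle gene set that the study drew up from these libraries, so that set is no independent evidence of their direction.

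*SFN* is expressed in squamous and some simple epithelia, so markers of both were measured beside it. The squamous defining genes were near or at 0. *DSG3*, *PKP1*, *LGALS7*, *SPRR1B* and *IVL* were listed at 0 in every library, *TP63* reached at most 0.00928 FPKM and *KRT5* at most 0.0544 FPKM. Of 18 squamous genes 2 passed the minimum. They were *KRT15*, a basal keratin, from 0.475, 0.479 and 0.550 to 2.36, 2.63 and 2.42 FPKM (log2 fold change 2.09), which passed only through its *RRM2*-OE-TPC-1 values, and the calcium-binding protein gene *S100A2*, which took up most of the summed level (log2 fold change 0.22). The summed FPKM of the squamous list was 94.0 to 108 in the TPC-1 libraries, against 116 to 129 under *RRM2* overexpression. Of 12 simple epithelial genes 4 passed the minimum. *KRT18*, a keratin of simple epithelia, rose by 1.05 on the log2 scale, its partner *KRT8* rose by 0.43, and the epithelial transcription factor gene *ELF3* fell by 1.06. *KRT7* did not pass the test (log2 fold change -0.21, limma adjusted p = 0.169). *KRT18* and *KRT8* share 525 exonic bases, and *ELF3* shares 664 with *ELF3-AS1*, so these values are uncertain where strand was not used. The summed simple epithelial level was 50.4 to 54.3 FPKM in TPC-1 and 91.7 to 94.6 FPKM in *RRM2*-OE-TPC-1. Most of it was *KRT18*, with means of 41.2 and 85.2 FPKM, so the sum mainly follows that gene. *EPCAM*, *CDH1*, *KRT19*, *CLDN3*, *CLDN4*, *CLDN7* and *ESRP1* stayed at or below 0.148 FPKM, and *GRHL2* was at 0 throughout. Of the 3 thyroid genes that passed the minimum, *PAX8* and *FOXE1* fell by 0.24 and 0.42 on the log2 scale, and *DUOX1*, at 0.618 and 0.268 FPKM, had passed only through its TPC-1 values. The summed level of the 14 follicular genes was 72.5 to 76.2 FPKM in TPC-1 and 60.1 to 63.5 FPKM in *RRM2*-OE-TPC-1. Most of this sum was *PAX8*, with means of 69.3 and 58.5 FPKM. The part of these markers in the *SFN* result was not tested.

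Because FPKM is per length, the members could be compared with each other. In TPC-1 the order was *YWHAQ*, *YWHAE*, *YWHAZ*, *YWHAG*, *YWHAB*, *YWHAH* and *SFN*, with means of 128, 125, 109, 66.4, 57.2 and 38.1 FPKM for the first 6. In *RRM2*-OE-TPC-1 the order was *YWHAQ*, *YWHAZ*, *YWHAE*, *YWHAG*, *YWHAH*, *YWHAB* and *SFN*, with means of 196, 166, 159, 90.3, 80.3 and 74.3 FPKM for the first 6. *YWHAZ* had thus passed *YWHAE*, and *YWHAH* had passed *YWHAB*. Neighbours in either order did not overlap between libraries. The closest were *YWHAQ* and *YWHAE* in TPC-1, where *YWHAQ* was 1.02 to 1.03 times *YWHAE* in every library. The order also depends on the length taken for each gene, from 1320 bases for *SFN* to 8555 bases for *YWHAZ*, whereas changes between the lines do not. All 6 YWHA genes were among the more abundant transcripts, with 93.2% of tested genes below *YWHAH* and 98.5% below *YWHAQ* in TPC-1.

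The summed level of the family was 525, 523 and 522 FPKM in TPC-1 and 767, 760 and 772 FPKM in *RRM2*-OE-TPC-1. The means of 523 ± 1.54 and 766 ± 5.70 FPKM (SD, n = 3 each) differed 1.46-fold without overlap (two-sided exact permutation p = 0.1, the smallest possible). The makeup of this sum shifted as well. *YWHAH* supplied 7.29% ± 0.0463 of it without and 10.5% ± 0.0516 with *RRM2* overexpression, a gain of 3.19 percentage points. *YWHAE* went the other way, from 23.8% ± 0.209 to 20.7% ± 0.299, although its own level rose. The shares of *YWHAQ* (24.4% to 25.6%) and *YWHAZ* (20.9% to 21.7%) were slightly larger, and those of *YWHAG* (12.7% to 11.8%) and *YWHAB* (10.9% to 9.70%) slightly smaller. No share overlapped between the lines, and each of the 7 exact permutation tests gave p = 0.1, also after Benjamini-Hochberg adjustment. Shares of the same sum depend on each other, so these are not 7 separate results. No such shares were computed for other sets of genes. Relative levels often did not overlap here, as in 83.2% of all pairs of genes with a mean of at least 50 FPKM.

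**Figure D3:**
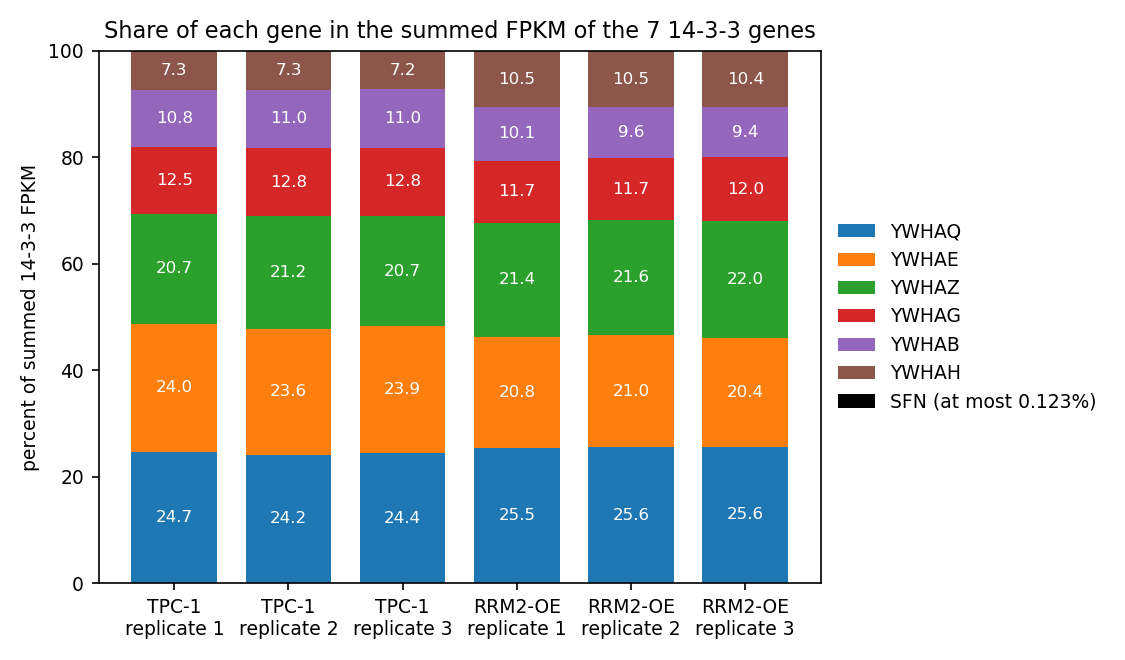
Percent of the summed 14-3-3 FPKM (vertical axis, 0 to 100) that each gene supplied in each of the 6 libraries (stacked bars, values printed in white). The *YWHAH* segment at the top is larger and the *YWHAE* segment smaller in all 3 *RRM2*-OE-TPC-1 libraries, while *SFN* is too small to be seen.

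To see which members rose by different amounts, the ratio of each pair of YWHA genes was compared between the lines within libraries. Of 15 pairs, 12 had ratios that did not overlap between the lines, each with an exact permutation p of 0.1 (0.125 after adjustment over the 15 pairs). Of all pairs among the 699 abundant genes, 83.2% had ratios that did not overlap, so the count of 12 is near the background. *YWHAH* rose more than every other YWHA gene, by 0.46 on the log2 scale relative to *YWHAQ*, 0.47 relative to *YWHAZ*, 0.63 relative to *YWHAG*, 0.70 relative to *YWHAB* and 0.73 relative to *YWHAE*. The ratio of *YWHAH* to *YWHAB* went from 0.667 to 1.08. *YWHAQ* rose more than *YWHAE* by 0.27 and *YWHAZ* more than *YWHAE* by 0.26. The remaining 3 ratios overlapped between the lines, namely *YWHAQ* to *YWHAZ* (difference 0.013, exact permutation p = 0.6), *YWHAG* to *YWHAB* (0.065, exact permutation p = 0.3) and *YWHAB* to *YWHAE* (0.029, exact permutation p = 0.5).

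Promoter windows from RefSeq on GRCh38.p14 were used for 6 of the 7 genes, and that of *YWHAZ* was not analysed here. The 4 stretches printed belong to *YWHAH*, the YWHA gene with the largest fold change, to *YWHAQ* and *YWHAG*, which rose less, and to the rare *SFN*, so that they can be read beside each other. Each is the part of the 250 bases before the RefSeq start that lies ahead of the gene's first base in the deposited table, written along the gene's own strand. Capitals mark matches on either strand to TATAAA (the core promoter box), CCAAT (the box read by NF-Y), GGGCGG (the box read by SP1), TTTNNCGC (the box read by E2F) and TGACGTCA (the cyclic AMP response element).
*YWHAH*, chr22:31944285-31944460, plus strand: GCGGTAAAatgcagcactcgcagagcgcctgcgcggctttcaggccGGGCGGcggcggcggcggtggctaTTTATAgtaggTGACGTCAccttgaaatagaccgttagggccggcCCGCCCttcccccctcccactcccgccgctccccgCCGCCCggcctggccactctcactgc
*YWHAQ*, chr2:9631015-9631247, minus strand: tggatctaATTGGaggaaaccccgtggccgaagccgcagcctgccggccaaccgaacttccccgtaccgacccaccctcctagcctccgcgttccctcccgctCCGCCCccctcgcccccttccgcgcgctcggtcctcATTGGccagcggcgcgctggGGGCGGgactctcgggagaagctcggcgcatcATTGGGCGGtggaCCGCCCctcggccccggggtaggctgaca
*YWHAG*, chr7:76359032-76359241, minus strand: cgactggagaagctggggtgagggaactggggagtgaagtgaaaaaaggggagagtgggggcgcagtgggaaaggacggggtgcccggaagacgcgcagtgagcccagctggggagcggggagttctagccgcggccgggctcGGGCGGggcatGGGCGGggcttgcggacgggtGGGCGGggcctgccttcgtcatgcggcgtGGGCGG
*SFN*, chr1:26862899-26863137, plus strand: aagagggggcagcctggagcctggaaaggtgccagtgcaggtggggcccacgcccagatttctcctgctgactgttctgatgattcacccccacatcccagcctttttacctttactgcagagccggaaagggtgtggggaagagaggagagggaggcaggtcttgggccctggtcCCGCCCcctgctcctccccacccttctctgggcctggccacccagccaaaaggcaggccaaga

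Over the full 250 bases the GGGCGG box was found in all 6 promoters, 3 times in *YWHAH*, 4 times each in *YWHAQ*, *YWHAG* and *YWHAB*, and 1 time each in *YWHAE* and *SFN*. This box was present in 42.6% of 35116 promoters searched in the same way. The *YWHAH* window was the only one of the 6 with TGACGTCA, 169 bases before the RefSeq start, a palindrome found in 1.65% of all promoters. It also held 1 match to TATAAA (10.7% of all promoters) and 1 to TTTNNCGC (5.92% of all promoters), the latter shared with *YWHAB*. CCAAT was present 3 times in *YWHAQ*, where 1 match overlaps a GGGCGG box, and 1 time in *YWHAB* (32.0% of all promoters). CACGTG, the E-box of MYC, was in none of the 6 windows (6.34% of all promoters). The YWHA windows were rich in CpG, from 21 in *YWHAB* to 34 in *YWHAH*, whereas *SFN* had 3 against a median of 11. A match of letters is a description of the sequence only.

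The genes with a pattern most like that of *YWHAH* over the 6 libraries were *STOM*, a membrane scaffold, *ADAM19*, a membrane protease, *ACACB*, an acetyl-CoA carboxylase, *TPM3*, a tropomyosin, and *CCNF*, cyclin F. The likeness is the Euclidean distance between centred log2(FPKM + 0.1), which was 0.0320, 0.0462, 0.0463, 0.0534 and 0.0540 in that order. Their log2 fold changes were 1.10, 1.08, 1.07, 1.04 and 1.08, next to 1.07 for *YWHAH*. Over 6 libraries of 2 lines, such a distance is set mainly by the change between the lines.

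The clients went in both directions. Of 68 genes for known 14-3-3 clients, 64 were tested, of which 24 rose (37.5%), 26 fell (40.6%) and 14 did not pass the test, with a median log2 fold change of -0.022. These shares are near those of all tested genes, 34.9% and 32.7%. Among the 26, *LRRK2* met the minimum for testing only through its TPC-1 values. By at least 2-fold, 4 clients rose and 4 fell, beside 4.48% and 6.97% of all tested genes.

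Among the clients of the cell cycle, *CDKN1A* and *CDC25A* changed most. *CDKN1A*, which encodes the CDK inhibitor p21, had 42.2, 39.7 and 41.6 FPKM in TPC-1 and 208, 203 and 212 FPKM in *RRM2*-OE-TPC-1 (log2 fold change 2.33, SE 0.0359, limma adjusted p = 9.81e-09). *CDC25A*, the phosphatase that activates CDK2 and is held by 14-3-3 after phosphorylation by CHK1, had 3.10, 3.25 and 3.57 FPKM against 10.3, 10.1 and 9.91 FPKM (log2 fold change 1.59). The related *CDC25B* and *CDC25C*, which act at mitotic entry, had log2 fold changes of -0.02 (limma adjusted p = 0.647) and -0.01 (limma adjusted p = 0.916). *CDC25C* shares 293 exonic bases with *FAM53C* on the other strand. *WEE1*, the kinase that opposes CDC25, rose by 0.80 on the log2 scale, and *CDKN1B*, encoding the CDK inhibitor p27, fell by 0.73. The latter 4 genes and the further members of client families below were picked after their values were seen.

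The FOXO transcription factors, which 14-3-3 proteins hold in the cytoplasm after phosphorylation by AKT, were all lower. *FOXO4* had 2.17, 2.00 and 2.02 FPKM in TPC-1 and 0.723, 0.779 and 0.637 FPKM in *RRM2*-OE-TPC-1, and fell by 1.42 on the log2 scale (SE 0.116, limma adjusted p = 1.55e-05). *FOXO3* fell by 0.94 and *FOXO1* by 0.59. The class IIa histone deacetylases, which leave the nucleus bound to 14-3-3, went in both directions. *HDAC5* fell from 3.29, 2.86 and 2.83 to between 1.14 and 1.23 FPKM (log2 fold change -1.26), *HDAC4* by 0.97 and *HDAC7* by 0.24, while *HDAC9* rose from 1.03, 1.11 and 1.07 to 2.42, 2.27 and 2.59 FPKM (log2 fold change 1.11). *ARHGEF2*, a microtubule-bound activator of RhoA, had the largest decrease among the tested clients, from 40.6, 36.0 and 40.8 to 13.8, 13.7 and 13.5 FPKM (log2 fold change -1.51, limma adjusted p = 2.02e-07). The remaining 2 clients past 2-fold were the apoptosis gene *BAX* (log2 fold change 1.09) and *TFEB*, the regulator of lysosome genes (log2 fold change -1.09). *BAD* rose by 0.27 but shares 404 exonic bases with *GPR137*. Of the RAF kinases, *ARAF* rose by 0.23, while *BRAF* did not pass the test (log2 fold change -0.23, limma adjusted p = 0.0714).

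**Figure D4:**
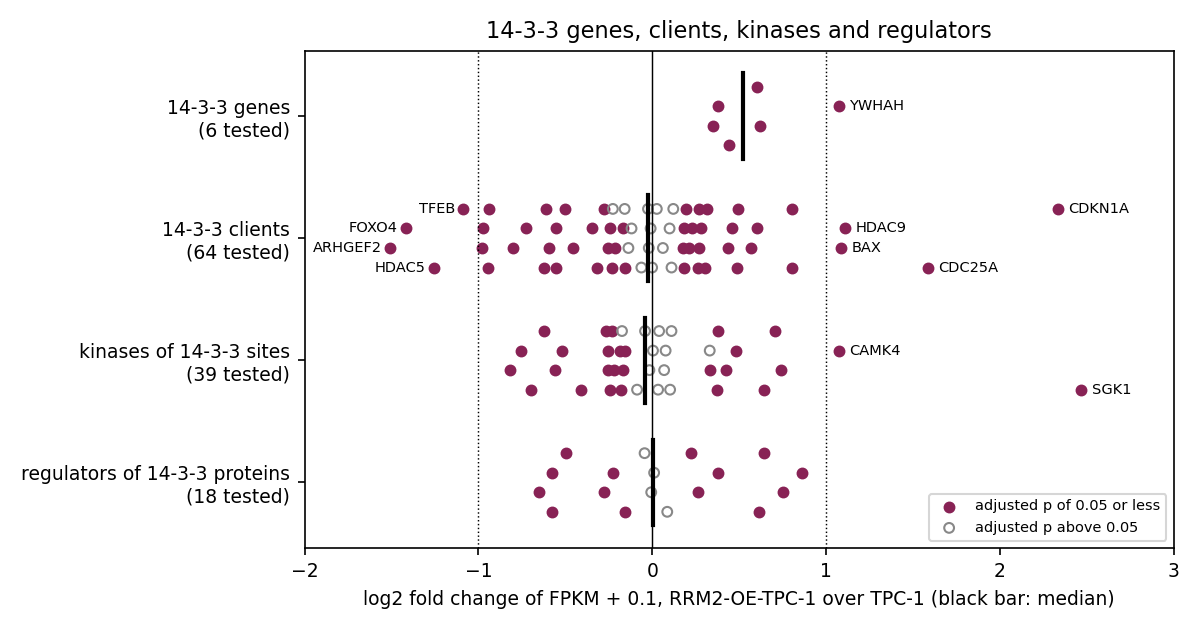
Log2 fold change of FPKM + 0.1, *RRM2*-OE-TPC-1 over TPC-1 (horizontal axis), of the tested 14-3-3 genes, clients, kinases and regulators (1 point per gene, filled where the limma adjusted p is 0.05 or less, black bars at the medians, names beyond the dotted lines at -1 and 1). The 14-3-3 genes all lie to the right of 0, whereas the 3 other groups spread to both sides, with medians of -0.022, -0.042 and 0.0022.

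The kinases that make 14-3-3 binding sites also went in both directions. Of 42 genes, 39 were tested, of which 10 rose (25.6%), 17 fell (43.6%) and 12 did not pass, with a median log2 fold change of -0.042. Of all tested genes, 34.9% rose and 32.7% fell. Among the 10, *SIK1* (0.512, 0.474 and 0.357 FPKM in TPC-1) met the minimum of 0.5 FPKM in 3 libraries only through its *RRM2*-OE-TPC-1 values. By at least 2-fold, 2 kinases were higher (5.13%) and 0 lower with limma, beside 4.48% and 6.97% of all tested genes. Both met the FPKM minimum only through the *RRM2*-OE-TPC-1 libraries, where they are high. Their direction is therefore no result about the list, and their values are given without a p-value. *SGK1*, a kinase of the AKT family that phosphorylates FOXO3, had 0.204, 0.155 and 0.207 FPKM in TPC-1 and 1.66, 1.34 and 1.49 FPKM in *RRM2*-OE-TPC-1 (log2 fold change 2.47). *CAMK4*, a calcium and calmodulin dependent kinase of class IIa deacetylases, had a log2 fold change of 1.07 at 0.355 and 0.853 FPKM, and it was under 2-fold without TPC-1 replicate 1. *AKT1* and *AKT2*, picked after their values were seen, differed in direction, at 0.38 and -0.26 on the log2 scale, each past the limma threshold.

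Genes for proteins that regulate the 14-3-3 family itself went in both directions. Of 21 genes, 18 were tested, 7 rose (38.9%, against 34.9% of all tested genes), 7 fell (38.9%, against 32.7%) and 4 did not pass, with a median log2 fold change of 0.0022 and none past 2-fold. For *SFN*, the list holds its activators, its ubiquitin ligases and the DNA methyltransferases that can silence it. *TP73* was listed at 0 and *TP63* was near 0 in both lines. *TRIM25*, a ubiquitin ligase for 14-3-3 sigma, fell by 0.50, and *COP1*, another ligase for it, rose by 0.27. *DNMT1*, the maintenance methyltransferase, rose by 0.64, while the de novo enzymes *DNMT3A* and *DNMT3B* each fell by 0.58. *BRCA1*, which acts on the *SFN* promoter, rose by 0.75, and *SPHK1*, which encodes a sphingosine kinase, rose by 0.62. These regulators too were picked after their values were seen.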

How the data were processed

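Poly(A) mRNA of 3 TPC-1 and 3 *RRM2*-OE-TPC-1 libraries was prepared with a directional kit and sequenced paired-end on a NovaSeq instrument. The labels also mention ribosomal RNA removal and RNase R. Per the authors' methods, fastp cleaned the reads, HISAT2 2.0.5 aligned and featureCounts 1.5.0 counted them, and the authors deposited the FPKM computed from these counts. The submitters' processing notes name GRCh38.p14. Strand use and the treatment of reads with several matches in counting are not given in the sources used here. Identifiers and coordinates of the table match GENCODE 29, with 58723 of 58735 symbols the same.

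FPKM times gene length gave whole reads for 100% of values above 0 (within 0.02 of a read). The depth the authors divided by was 1.03 to 1.05 times the reads on genes in TPC-1 and 0.997 to 1.01 times in *RRM2*-OE-TPC-1, so scaling to library totals would lower every fold change slightly. The authors used DESeq2 1.20.0 on counts. With deposited FPKM, limma 3.58.1 (R 4.3.3, lmFit and eBayes with trend) was used on log2(FPKM + 0.1) for 13621 genes (minimum FPKM of 0.5 and minimum of 10 reads, each met in 3 or more libraries). A run on simulated reads with few changed genes preceded it. Much more of the transcriptome differed here, so that run does not show how the fit performs on these data. No covariate entered, and p-values were adjusted after Benjamini and Hochberg. Single values were compared by two-sided exact permutation tests (Python 3.11.15, scipy 1.17.1), which cannot go below 0.1 with 3 against 3 libraries. P-values measure the spread between these libraries only. Alternatives were the pseudocount, no minimum, library totals, median-of-ratios size factors, protein-coding genes alone, voom on the recovered reads, a replicate block and leaving out each library.

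The members and lists were chosen with earlier results of these data known. Named genes were *RRM2*, the members, their pseudogenes with at least 10 reads in 3 libraries, genes with overlapping exons, up to 3 genes of each list in each direction past 2-fold, and the 5 nearest to *YWHAH*. Promoter windows were taken from RefSeq. A few genes of the lists are not reported here.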

Additional observations from a re-analysis of the deposited data

How the results depend on the processing

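Of 208 recomputed values, 203 kept their direction and their side of the threshold or stayed within 1.5 times the count reported, 5 moved and 0 reversed. The log2 fold changes ranged from 1.02 to 1.08 for *YWHAH*, 0.56 to 0.63 for *YWHAQ*, 0.55 to 0.61 for *YWHAZ*, 0.39 to 0.45 for *YWHAG*, 0.32 to 0.39 for *YWHAB* and 0.29 to 0.36 for *YWHAE*, the lowest with scaling to library totals, and the highest adjusted p of any of them was 0.000425. Without a minimum on low values, 2 of the 14-3-3 genes passed both thresholds (adjusted p of 0.05 or less and 2-fold) instead of 1, since *SFN* was then tested. Its log2 fold change was 2.18 there, and over the other settings it went from 0.64 with a pseudocount of 1 to 3.63 with 0.01. With a pseudocount of 1, which shrinks low genes, 716 instead of 1560 of all tested genes, 4 instead of 8 clients and 1 instead of 2 kinases passed both thresholds. Without 1 library in turn, 1 to 2 kinases passed, with *CAMK4* lost without TPC-1 replicate 1. The replicate numbers do not pair the samples: same-numbered libraries had correlations of their deviations from -0.055 to -0.006. With a replicate block, 8934 instead of 9207 genes had an adjusted p of 0.05 or less, 6 of the 14-3-3 genes among them in both fits, and 1566 instead of 1560 passed both thresholds. With 3 libraries a line, permutation tests cannot reach 0.05, and *SFN* is limited by 49 reads in all.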

Other observations

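The 14-3-3 genes have 20 annotated pseudogenes, and reads of such near-identical copies could be split between gene and pseudogene. They took 276 reads in all beside 301655 reads on the 7 genes (0.0915%), and 8 of them were listed at 0 in every library. With at least 10 reads in 3 libraries there were 2. *YWHAZP3* had 13, 17 and 9 reads in TPC-1 and 11, 15 and 14 reads in *RRM2*-OE-TPC-1. *YWHAEP7*, on chromosome 17 as *YWHAE* is, had 26, 38 and 18 reads in TPC-1 and 1, 0 and 8 reads in *RRM2*-OE-TPC-1, 82 reads against 9. It met the read minimum only through TPC-1, where it is high, so its difference is given as counts without a test.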
